A study of Mus musculus with 6 samples.

Results

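The transcription factor p53 and 31 genes that it controls or that control it were examined in tongues of C57BL/6J mice. The 32 genes were taken by name. Of these, 30 had a probe set annotated to them alone, and for each gene the probe set with the highest mean log2 signal over all 6 arrays was used, out of 18193 genes measured in that way. Trp53, which encodes p53 itself, and Bax had no probe set named in the annotation used here, so they were not analysed. Transcripts were quantified with Affymetrix mouse arrays in adult tongues of 3 untreated control mice and of 3 mice that had drunk 4-nitroquinoline 1-oxide (4NQO), a carcinogen that damages DNA, at 100 μg/ml for 8 weeks, with 1 array per tongue. Both groups were of the same inbred strain without any engineered allele named in the labels. The whole tongue was extracted, so each value averages over epithelium, muscle and all other cells, and fewer cells of a type cannot be told apart from less RNA per cell.

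In unstressed cells p53 is kept low by MDM2 and its relative MDM4. DNA damage activates the kinases ATM, ATR, CHK1 and CHK2, which release p53 from MDM2, and p53 then binds DNA as a tetramer and switches on genes of cell-cycle arrest, apoptosis and repair, together with Mdm2 as a negative feedback. Much of this control acts on the p53 protein, which arrays do not measure. Changes in target transcripts are a common readout of p53 activity. In squamous epithelium its relative p63 binds the same DNA motif and keeps several of the same genes on.

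The DNA that p53 binds is a pair of elements of 10 bases each, known as the p53 consensus. RefSeq promoter windows of 300 bases (250 before and 50 after a transcription start, assembly GRCm38.p6) were found for 26 of the 32 genes, all but Pmaip1, Zmat3, Trp53inp1, Perp, Tnfrsf10b and Ccnd2, with 33 windows in all. A single element without mismatch was present in 12 of the 33 windows (36.4%) and in 8.36% of all 32851 windows. The 12 windows belong to 11 members, because 2 windows of Aen overlap and share 1 element. The genes were chosen as targets or regulators of p53, so the shares are a description. The consensus is its own reverse complement, so that a search of one strand covers both. A full site was counted where a pair of elements lay side by side with at most 2 mismatches, none of them in the central C and G of either element. It was present in 4 member windows and in 0.326% of all windows. These 4 stretches are shown because they are the members whose start carries a full match, and the full site is in capitals. They read 5′ to 3′ on the strand of the gene.
Cdkn1a, chr17:29090868-29090957, plus strand, 1 mismatch: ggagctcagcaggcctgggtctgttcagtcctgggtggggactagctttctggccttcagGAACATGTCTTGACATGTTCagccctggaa
Ccng1, chr11:40755452-40755536, minus strand, 1 mismatch: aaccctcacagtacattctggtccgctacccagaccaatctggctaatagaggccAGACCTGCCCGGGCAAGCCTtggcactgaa
Gtse1, chr15:85859885-85859974, plus strand, 1 mismatch: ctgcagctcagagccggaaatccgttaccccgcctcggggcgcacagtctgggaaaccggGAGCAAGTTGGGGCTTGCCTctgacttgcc
Ckap2, chr8:22185993-22186069, minus strand, 2 mismatches: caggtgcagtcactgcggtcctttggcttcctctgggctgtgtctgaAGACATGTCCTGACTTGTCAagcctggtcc
The site began 51 bases before the start in Cdkn1a, 195 in Ccng1, 203 in Ckap2 and 1 in Gtse1. Cdkn1a and Gtse1 each have 2 windows, and 1 of them holds the site. In Cdkn1a it was the window of an upstream start, chr17:29090729-29091028. The window of its other start, chr17:29093519-29093818, held no element without mismatch and no full site. A match is a description of the letters and not a measured binding site, and p53 sites outside these windows were not searched.

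No member passed the threshold, which was a limma p under 0.05 after adjustment over the 18193 genes. By the same criterion 0.126% of all genes were higher and 0.0055% were lower in 4NQO-treated tongue. At an unadjusted p under 0.05 from limma, 7 members were higher (23.3%) and 2 were lower (6.67%), beside 6.68% and 3.74% of all genes. The methods' t-test also gave 0 members after adjustment, with 5 higher and 2 lower without it. All 4NQO-treated tongues lay above all control tongues for 6 members of 30, beside 9.59% of all genes, and all lay below for 3 of 30, beside 7.18% of all genes. The median log2 fold change over the 30 members was 0.20, and over all genes it was -0.01. A log2 fold change here is the mean log2 signal of 4NQO-treated tongue minus that of control tongue, so that 1 stands for a doubling. With 3 against 3 tongues, a two-sided exact permutation test cannot give a p below 0.1.

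**Figure D1:**
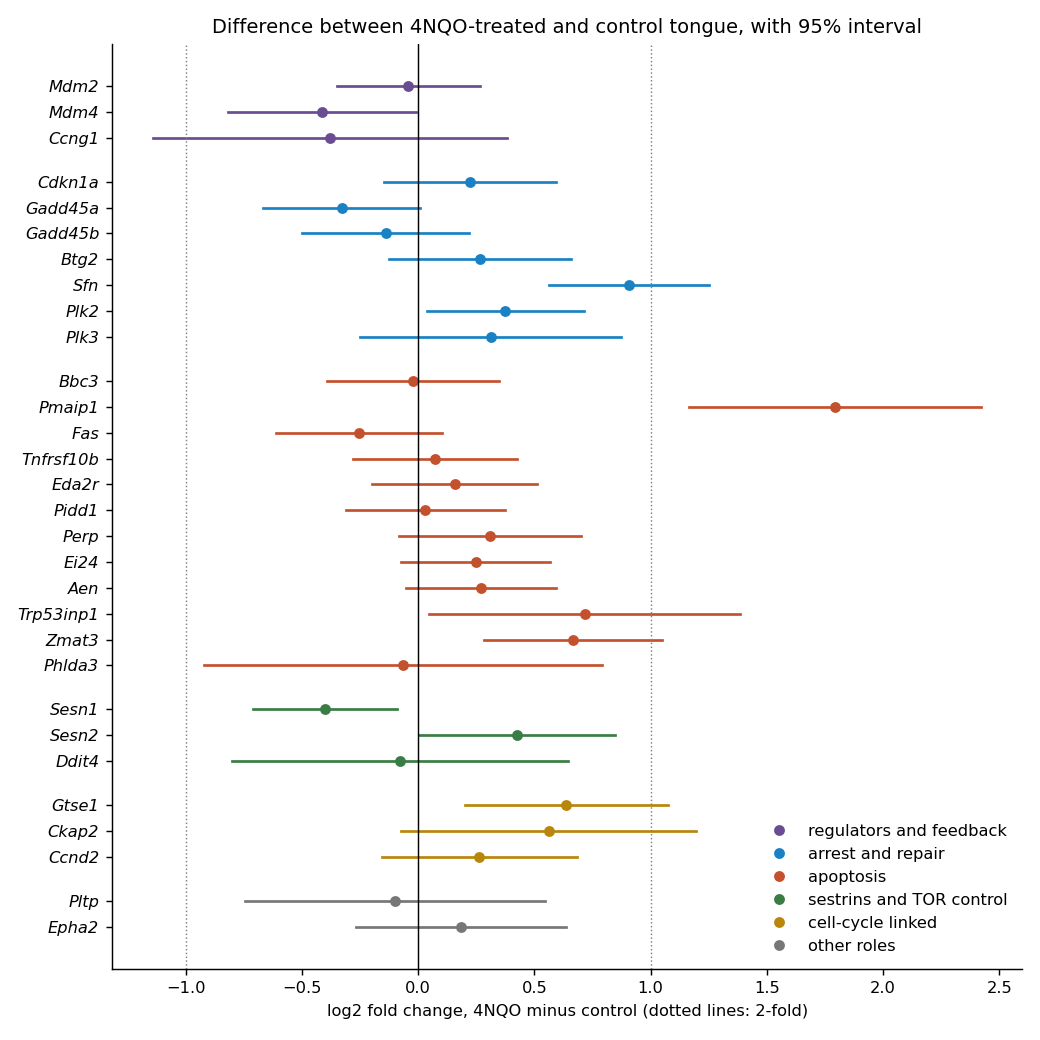
Log2 fold change of 4NQO-treated against control tongue for the 30 measured members, grouped and coloured by role, with the 95% interval from limma as a horizontal line and dotted lines at a 2-fold difference. Pmaip1 lies farthest from 0 at 1.79, and the interval stays within the dotted lines for 23 of the 30 members.

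The 95% interval of the difference stayed within a 2-fold difference in either direction for 23 of the 30 members. The exceptions were Ccng1, Sfn, Pmaip1, Trp53inp1, Zmat3, Gtse1 and Ckap2. The members with the smallest p were Pmaip1 and Sfn, whose adjusted p-values from limma were 0.0671 and 0.0703. The members were thus unequal, and they are described below by role.

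Of the 3 measured regulators and feedback genes, none was higher and 1 was lower at an unadjusted p under 0.05. Over all genes the shares were 6.68% and 3.74%. Mdm2, the ubiquitin ligase that p53 induces against itself, had log2 signals of 9.01, 8.94 and 9.05 in control tongue and of 8.80, 9.12 and 8.95 in 4NQO-treated tongue. The groups overlapped, and the log2 fold change was -0.04 with a 95% interval from -0.35 to 0.26, its sign turning when arrays were centred on their medians. Its second probe set had a log2 fold change of -0.27, and the remaining one, close to the lowest signals of the arrays, had -0.02.
Ccng1, cyclin G1, a classical p53 target that acts on MDM2 through a phosphatase, carries one of the full sites shown above. Its log2 signals were 10.93, 10.17 and 10.16 in control tongue and 9.41, 10.08 and 10.64 in 4NQO-treated tongue. Both groups were widely spread, and the 95% interval of the log2 fold change ran from -1.14 to 0.38. The other probe sets of Ccng1 had log2 fold changes of 0.09 and -0.21.
Mdm4, which binds p53 and blocks its activity, had log2 signals of 5.48, 5.66 and 5.70 in control tongue and of 5.02, 5.47 and 5.11 in 4NQO-treated tongue. All treated tongues lay below all control tongues, replicate 2 by only a narrow margin, and the log2 fold change was -0.42 (SE 0.17, limma adjusted p = 0.468, where SE is the standard error of the log2 fold change). A second probe set had -0.45, and its groups almost touched, with the highest treated tongue at 5.088 and the lowest control at 5.089. A dim one had 0.25 with the treated tongues above the controls, and the last had -0.02, so the probe sets of Mdm4 disagreed in sign.

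Of 7 members of arrest and repair, 2 were higher and none was lower at an unadjusted p under 0.05. Over all genes the shares were 6.68% and 3.74%. Cdkn1a encodes p21, the inhibitor of cyclin-dependent kinases through which p53 stops the cell cycle. Its log2 signals were 11.29, 11.43 and 11.29 in control tongue and 11.91, 11.37 and 11.39 in 4NQO-treated tongue. A single treated tongue, replicate 1, lay above the controls, while the other two lay among them. The log2 fold change was 0.22 with a 95% interval from -0.15 to 0.59, and Cdkn1a ranked above 98.1% of all genes by mean signal. The second probe set had a log2 fold change of -0.34 and ranged from 8.51 to 11.27 over the treated tongues.
Sfn encodes 14-3-3 sigma, an epithelial protein that holds cells in G2. Its log2 signals were 10.89, 10.54 and 10.62 in control tongue and 11.80, 11.39 and 11.58 in 4NQO-treated tongue. All treated tongues lay above all controls, and the mean was 1.88-fold that of control tongue (log2 fold change 0.91, SE 0.15, limma adjusted p = 0.0703). With each array centred on its median, Sfn passed at an adjusted p of 0.0498. Sfn is made by keratinocytes. Over the 9 measured keratinocyte markers the log2 fold change had its median at 0.14, and 7 of 9 were positive. At an unadjusted p under 0.05, 2 of 9 (22.2%) were higher, Krt14 with 0.32 and Cdh1 with 0.58, and none was lower. Over all genes the shares were 6.68% and 3.74%. The 2 negative markers were Krt15 with -0.64, the largest difference of the list, and Krt4 with -0.20. None of the 9 passed after adjustment, and the groups overlapped for all 9. Their mean log2 signal was 11.4 to 11.6 on the control arrays and 11.4 to 11.7 on the 4NQO arrays. The share of epithelium was not measured, and its part in the difference of Sfn was not tested.
Plk2, a polo-like kinase induced by stress, had log2 signals of 7.54, 7.23 and 7.39 in control tongue and of 7.66, 7.84 and 7.78 in 4NQO-treated tongue. The groups did not overlap, and the log2 fold change was 0.37 (SE 0.15, limma adjusted p = 0.436). Its relative Plk3 had 0.31 with overlapping groups.
Gadd45a, a stress protein of repair and G2 arrest, lay on the other side. Its log2 signals were 6.88, 7.04 and 6.83 in control tongue and 6.52, 6.53 and 6.71 in 4NQO-treated tongue, all below the controls, with a log2 fold change of -0.33 (SE 0.15, limma adjusted p = 0.491). Gadd45b had -0.14 and a 95% interval from -0.50 to 0.22, and its other probe sets had 0.17 and -0.20. Btg2, an antiproliferative gene, had 0.27 and overlapping groups, with 0.16 for its second probe set.

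**Figure D2:**
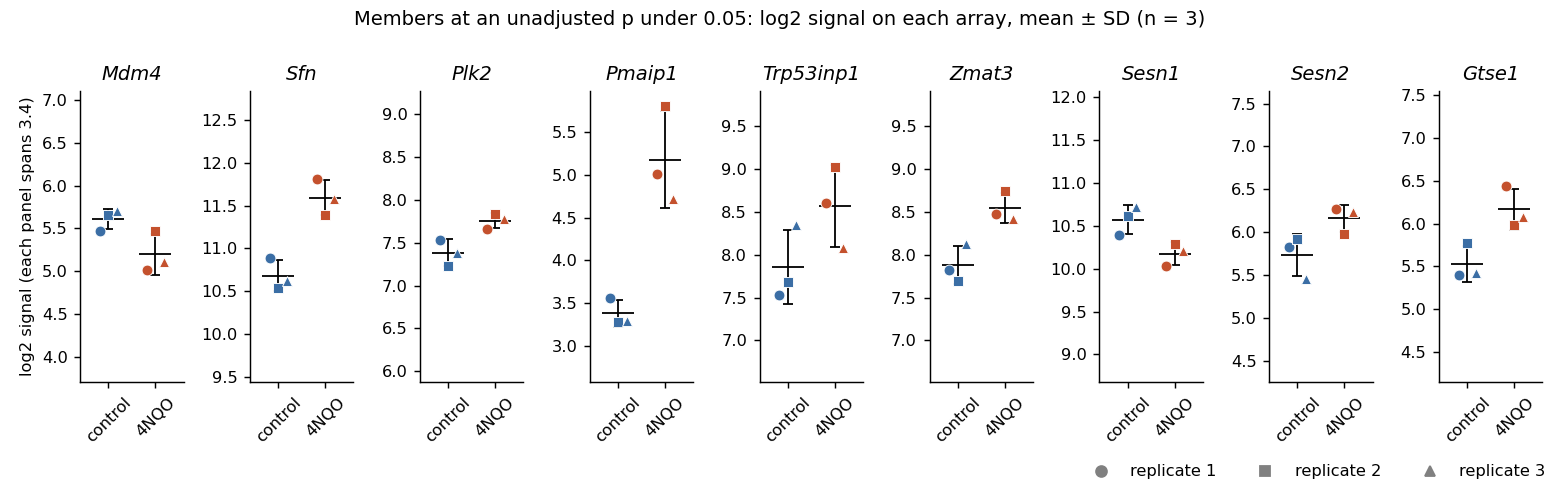
Log2 signal of the 9 members at an unadjusted p under 0.05 from limma, in panels that each span 3.4 on the log2 scale, with 1 point per tongue, a horizontal bar for the group mean and error bars for SD (n = 3). Pmaip1 shows the widest gap between groups, Trp53inp1 is the only one of these whose groups overlap, and Mdm4 and Sesn1 are the ones that are lower in 4NQO-treated tongue.

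Of 12 measured members of apoptosis, 3 were higher and none was lower at an unadjusted p under 0.05. Over all genes the shares were 6.68% and 3.74%. Pmaip1 encodes NOXA, a BH3-only protein that neutralises MCL1. Its log2 signals were 3.57, 3.28 and 3.30 in control tongue and 5.01, 5.80 and 4.71 in 4NQO-treated tongue. The lowest treated tongue lay more than 1 log2 unit above the highest control, and the log2 fold change was 1.79 (SE 0.27, limma adjusted p = 0.0671). Every control signal lay below the median of its array and may be background, so the log2 fold change is not given as a linear fold. With a robust variance model Pmaip1 passed at an adjusted p of 0.0488, and its log2 fold change ranged from 1.44 to 2.02 over 17 alternatives. The alternative that left out dim genes dropped Pmaip1.
Bbc3 encodes PUMA, another BH3-only protein that p53 induces, and it differed from Pmaip1 in pattern. Its log2 signals were 5.36, 5.57 and 5.34 in control tongue and 5.56, 5.24 and 5.40 in 4NQO-treated tongue. The groups lay on top of each other, and the 95% interval of the log2 fold change ran from -0.39 to 0.35.
Zmat3, a zinc finger RNA-binding protein and direct p53 target, had log2 signals of 7.83, 7.69 and 8.12 in control tongue and of 8.48, 8.74 and 8.41 in 4NQO-treated tongue. All treated tongues lay above all controls, 1.59-fold on the means (log2 fold change 0.67, SE 0.17, limma adjusted p = 0.216). Trp53inp1, a stress protein that helps p53 toward apoptotic targets, had 7.54, 7.68 and 8.34 in control tongue and 8.60, 9.03 and 8.08 in 4NQO-treated tongue. Treated replicate 3 lay below control replicate 3, so the groups overlapped, and the log2 fold change was 0.72 (SE 0.29, limma adjusted p = 0.450). A dimmer probe set of Trp53inp1 had 0.28, without overlap.
The other members of this role had overlapping groups and log2 fold changes from -0.26 to 0.31. Among the death receptors, Fas had -0.26, Tnfrsf10b, a receptor of TRAIL, had 0.07, and Eda2r, a receptor of ectodysplasin, had 0.16. The control signals of Tnfrsf10b lay below the array medians. Pidd1, which assembles a platform for caspase 2, had 0.03. Perp, a desmosomal protein that both p53 and p63 control, was among the brightest genes, above 99.3% of all genes by mean signal, and had 0.31 with a 95% interval from -0.08 to 0.70. Ei24 had 0.25. Aen, a nuclease, had 0.27, and its other probe sets had 0.27, -0.07 and 0.14. The second probe set of Tnfrsf10b had -0.06.
Phlda3, a p53-induced inhibitor of AKT, had log2 signals of 11.05, 11.28 and 10.07 in control tongue and of 11.28, 10.12 and 10.80 in 4NQO-treated tongue. The lowest array of each group, control replicate 3 and 4NQO replicate 2, was also the one with the largest 3′ minus 5′ difference of the Gapdh control probe sets, a sign of RNA integrity (1.67 and 1.07 on the log2 scale, 0.0858 to 0.469 on the other arrays). The corresponding difference of the actin probe sets was 1.01 on control replicate 3, the largest of the controls, and 0.954 on 4NQO replicate 2, below the 1.12 of 4NQO replicate 1. The same arrays were also the lowest for the muscle marker Myh2, with 5.43 and 5.01 beside 8.49 to 9.36 on the other arrays. This did not hold for every muscle marker. The parts of RNA integrity and of tissue content in the values of Phlda3 were not tested. The 95% interval of Phlda3, from -0.92 to 0.79, was the widest of the 30.

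Sestrins protect cells from oxidative stress and restrain the kinase TORC1. The sestrins among the members, Sesn1 and Sesn2, lay on opposite sides of 0. Sesn3, listed with the further p53 targets, had a log2 fold change of -0.12 and overlapping groups. Sesn1, the member of the family most tied to p53, had log2 signals of 10.39, 10.61 and 10.72 in control tongue and of 10.03, 10.29 and 10.21 in 4NQO-treated tongue. All treated tongues lay below all controls, and control tongue was 1.32-fold higher (log2 fold change -0.40, SE 0.13, limma adjusted p = 0.357). Its 3 other probe sets, all far dimmer, had -0.12, -0.69 and 0.19. Sesn2, which also answers to NRF2 and to the integrated stress response, had log2 signals of 5.83, 5.93 and 5.46 in control tongue and of 6.27, 5.98 and 6.24 in 4NQO-treated tongue. All treated tongues lay above all controls, control replicate 2 and treated replicate 2 being close, and the log2 fold change was 0.42 (SE 0.18, limma adjusted p = 0.476). The second probe set had 0.53 with overlapping groups.
Within each array, the log2 signal of Sesn2 minus that of Sesn1 was 0.82 higher on average in 4NQO-treated than in control tongue (SD 0.37 in control and 0.28 in 4NQO, n = 3 each). This comparison was chosen after the values of both genes were known, and since each separates the groups it is a description, with no test. Ddit4 encodes REDD1, another brake on TORC1. It had 8.08, 9.13 and 9.32 in control tongue and 9.03, 8.64 and 8.63 in 4NQO-treated tongue, with control replicate 1 far below all other arrays and a 95% interval from -0.80 to 0.64. Ddit4 also responds to glucocorticoids. Of 7 such genes, 3 were lower at an unadjusted p under 0.05 (Fkbp5, Klf9 and Tsc22d3), with groups that did not overlap. None passed after adjustment. Over all genes, 3.74% were lower by that p, and 7.18% had all treated tongues below all controls.

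Sesn1 and Mdm4 were the 2 members lower at an unadjusted p under 0.05, and this did not hold in every setting. With each array centred on its median, no member was lower by this criterion, and the same was seen without control replicate 2, without control replicate 3 and without 4NQO replicate 1. Without 4NQO replicate 3 the count was 1.

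**Figure D3:**
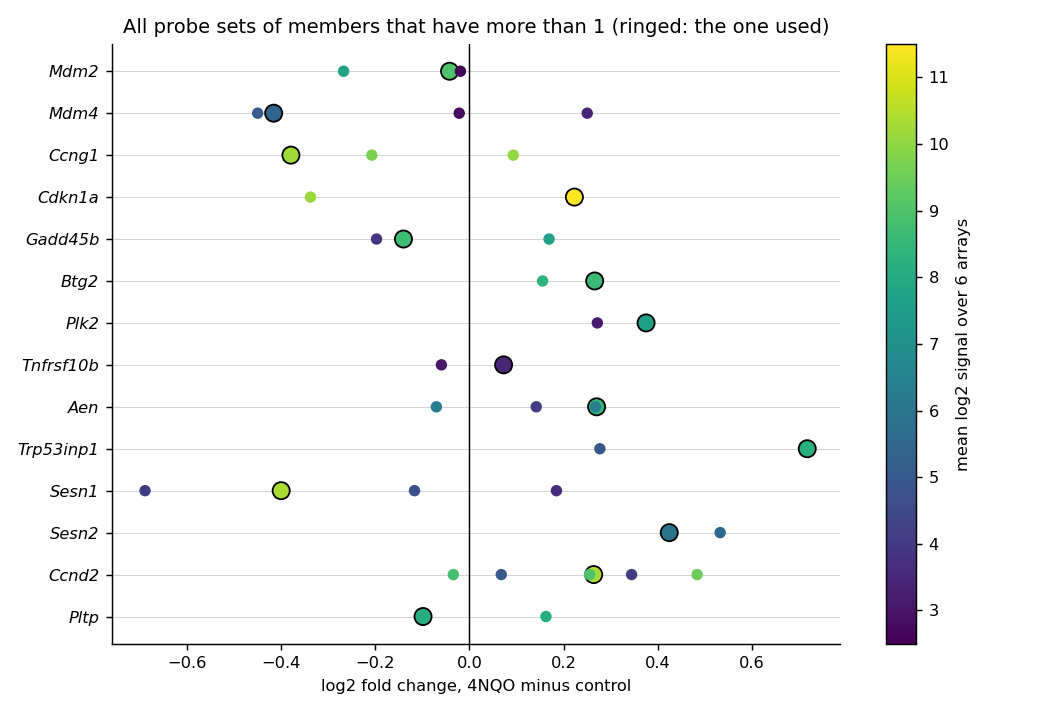
Log2 fold change (horizontal axis) of every probe set of the 14 members that have more than 1, coloured by mean log2 signal, with the probe set used in the comparison ringed in black. Probe sets lie on both sides of 0 for 9 genes, among them Cdkn1a, Mdm4 and Sesn1, and on 1 side for Mdm2, Btg2, Plk2, Trp53inp1 and Sesn2.

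The 3 cell-cycle linked members were all higher on average. Gtse1 encodes a microtubule protein that appears in G2 and carries p53 out of the nucleus. It had log2 signals of 5.40, 5.77 and 5.42 in control tongue and of 6.44, 5.98 and 6.08 in 4NQO-treated tongue. The groups did not overlap, and the mean was 1.56-fold that of control tongue (log2 fold change 0.64, SE 0.19, limma adjusted p = 0.293). Ckap2, a spindle protein, had 6.87, 7.23 and 7.70 in control tongue and 7.71, 8.29 and 7.47 in 4NQO-treated tongue. Treated replicate 3 lay below control replicate 3, so the groups overlapped, and the log2 fold change was 0.56 with a 95% interval from -0.07 to 1.19. Ccnd2, cyclin D2, which drives G1, had 0.26 with overlapping groups, and its 7 probe sets ranged from -0.03 to 0.48.
Gtse1 and Ckap2 are made mainly by dividing cells, so markers of proliferation were set beside them. Of 19 markers, 17 were higher and none was lower at an unadjusted p under 0.05 from limma, beside 6.68% and 3.74% of all genes. None of the 19 passed after adjustment. Their median log2 fold change was 1.00, above that of all 3 members. Ccna2, cyclin A2, had the smallest p of the list (log2 fold change 1.14, limma adjusted p = 0.0928), and Ube2c, Birc5, Aurkb, Bub1 and Cdk1, all of mitosis, had 1.34 to 1.53. The highest of these was Aurkb, whose control signals lay below the array medians and may be background. Relative to the control mean, the median over the 19 markers was -0.45, 0.08 and 0.39 on control arrays 1, 2 and 3, and 1.14, 1.20 and 0.68 on 4NQO arrays 1, 2 and 3. The part of proliferation in the values of Gtse1 and Ckap2 was not tested.

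**Figure D4:**
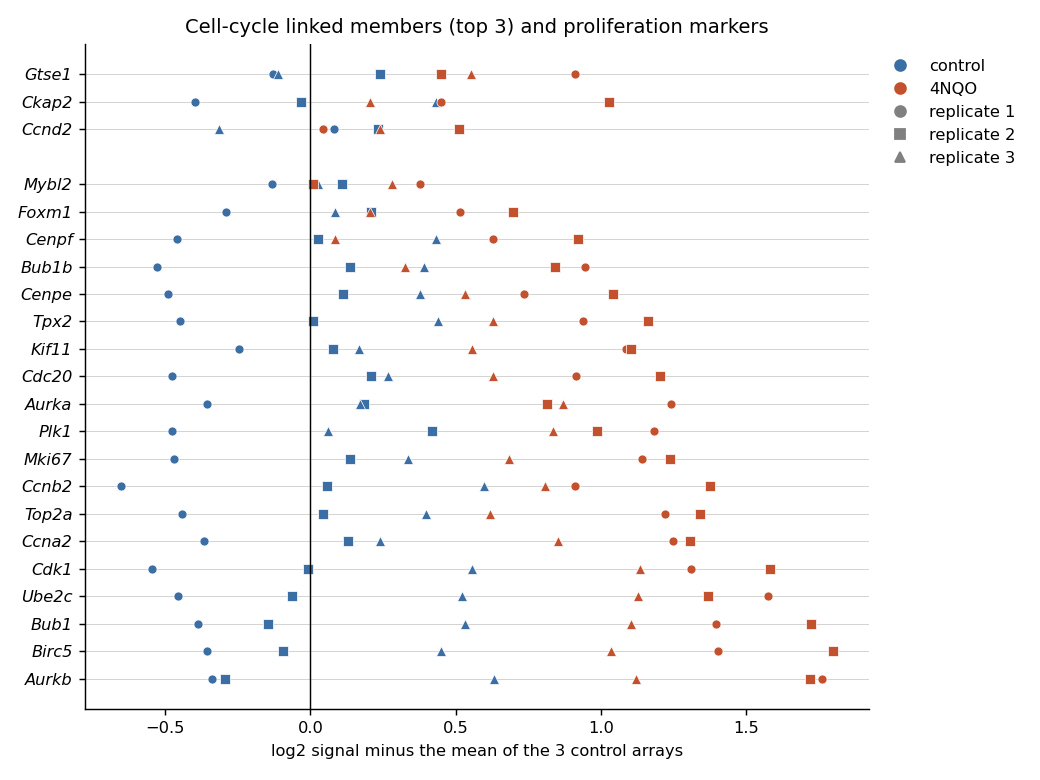
Difference in log2 signal from the control mean for the 3 cell-cycle linked members and for 19 proliferation markers, with 1 point per tongue, coloured by group and shaped by replicate. Every proliferation marker had a higher mean in 4NQO-treated tongue, and control replicate 1 was the lowest array for each of them.

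Of the members with other roles, Pltp, a lipid transfer protein, stood at -0.10 on the log2 scale, and its second probe set at 0.16. Epha2, an ephrin receptor of epithelial cells, had 0.18. Both had overlapping groups.

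Other genes of the p53 pathway were listed apart from the members. Of 38 further p53 targets measured, 8 were higher (21.1%) and 1 was lower (2.63%) at an unadjusted p under 0.05 from limma. Over all genes the shares were 6.68% and 3.74%. None of the 38 passed after adjustment. Ephx1, microsomal epoxide hydrolase, had the smallest p, with a mean of 9.65 ± 0.15 in the controls and of 10.32 ± 0.15 after 4NQO (log2 signal, SD, n = 3 each, limma adjusted p = 0.139). Tap1, a peptide transporter of antigen presentation that interferons also induce, had a log2 fold change of 1.52. Psrc1, a spindle protein, had 0.82, and Dcxr, a carbonyl reductase, had 0.68. Bid, which links death receptors to BAX, had 1.09, and Ier5, an early response gene, had 0.55. For each of these 6 genes all treated tongues lay above all controls. Apaf1, the core of the apoptosome, had 0.41, and Siva1, a pro-apoptotic gene, had 0.31. Gadd45g, a relative of Gadd45a, was the gene that was lower, with -0.48 and overlapping groups.
Of 23 measured kinases, cofactors and regulators of p53, 2 were higher (8.70%) and none was lower at an unadjusted p under 0.05. The share of higher genes was near the 6.68% of all genes, and none of the 23 passed after adjustment. The 2 were Chek1 and Chek2, which encode checkpoint kinases that phosphorylate p53. Chek1 had log2 signals of 4.61, 4.26 and 4.28 in control tongue and of 5.02, 4.92 and 4.72 in 4NQO-treated tongue. Chek2 had 5.29, 5.49 and 5.54 in control tongue and 6.12, 6.11 and 5.57 in 4NQO-treated tongue. Neither had overlapping groups, Chek2 by only a narrow margin. All treated tongues lay above all controls for 17.4% of this list, beside 9.59% of all genes. Ep300, a coactivator of p53, had a log2 fold change of 0.35. Trp63, which encodes p63, had a mean of 9.25 ± 0.30 in the controls and of 9.56 ± 0.50 after 4NQO (log2 signal, SD, n = 3 each). Cdkn2a, whose ARF product blocks MDM2, had 0.25 at a low signal. Over both lists 10 genes were higher, and without control replicate 2 the count was 6.

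**Figure D5:**
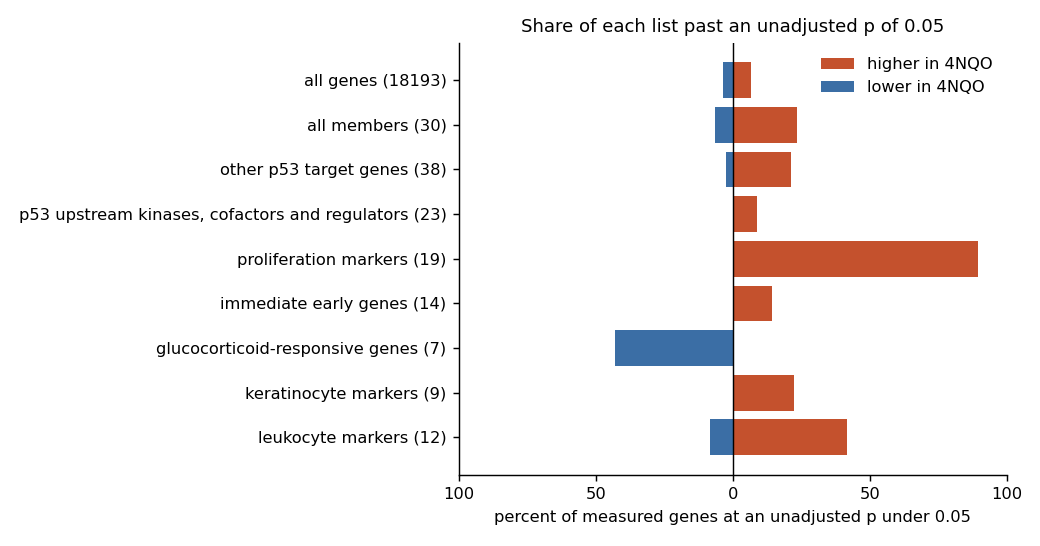
Percent of measured genes with a limma p under 0.05 before adjustment, by list, higher in 4NQO-treated tongue to the right and lower to the left, with the number of genes in parentheses. The members stood at 23.3% higher and 6.67% lower, all genes at 6.68% and 3.74%, and the proliferation markers at 89.5% higher.

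The tissue was checked through markers of its cells. Skeletal muscle markers were the brightest list, and keratinocyte markers such as Krt13 and Krt14 were also bright. No gene of the marker lists passed after adjustment. At an unadjusted p under 0.05 from limma, 6.68% of all genes were higher and 3.74% were lower. Leukocyte markers had a median log2 fold change of 0.34, with 5 of 12 higher and 1 lower before adjustment (p under 0.05). Higher were Ptprc with 1.12, Cd3g with 0.94, Itgax, a marker of dendritic cells and macrophages, with 1.15, S100a8 with 2.76 and S100a9 with 2.60. The groups overlapped for Ptprc, Cd3g and S100a9, and the control signals of Cd3g lay below the array medians. S100a8 ranged from 8.04 to 11.24 over the treated tongues. Cd79a was lower, with -0.59 and groups that did not overlap. The remaining 6 leukocyte markers were not past that p. Of the immediate early genes, which like Btg2 and Plk2 are induced rapidly, 2 of 14 were higher (Fosl1 with 1.92 and Myc with 0.48) and none was lower. Of the fibroblast markers 1 of 7 was lower (Col1a2), the keratinocyte markers Krt14 and Cdh1 were higher, and no muscle, endothelial, adipocyte or salivary gland marker was past that p. Several of the latter varied widely within both groups. Bpifa2, of the salivary gland, had log2 signals of 2.31, 11.41 and 8.37 in control tongue and of 2.10, 2.80 and 12.31 in 4NQO-treated tongue. For Muc5b, Adipoq and Myh2 the SD was 2.69, 2.20 and 2.17 in control tongue and 3.30, 2.72 and 2.29 in 4NQO-treated tongue. A p above 0.05 thus does not show that the tongues held equal amounts of these tissues. The part of these lists in the values of the members was not tested. Without control replicate 3 and 4NQO replicate 2, the arrays with the largest Gapdh difference, the unadjusted counts were again 7 members higher and 2 lower, and the median over the members was 0.21.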

How the data were processed

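RNA of 6 tongues was hybridized to Affymetrix mouse arrays, 1 per tongue. The authors deposited 1 log2 signal per probe set and array, after quality filtering and normalization with Bioconductor. Which normalization they chose was not stated, so its effect on these values could not be checked. The number of arrays limits the precision.

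Probe sets were named through the platform annotation. Of 45101, 34945 were annotated to 1 gene and 932 to several, 9160 had no gene and 64 were array controls. The 18193 genes were compared with limma 3.58.1 in R 4.3.3 (lmFit and eBayes with an intensity trend, no filter), with Benjamini-Hochberg adjustment over all of them. The paper describes the same design and platform but names another deposit for its arrays, and its methods were assumed to apply to these values. The study's own test was SAM, for which limma, another moderated test, was used here, and limma was tested on simulated data. The methods' t-test is the one the study names for other two-group comparisons. The members, roles and lists were chosen with earlier results of these data known, so their counts are descriptions. Values on every array are given for Mdm2, Mdm4, Cdkn1a, Sesn1, Sesn2 and each member at an unadjusted p under 0.05 or without overlap. Of other lists up to 6 genes with the smallest p are named. Ccng1, Bbc3, Phlda3, Ddit4, Ckap2, Plk3, Siva1, Apaf1, Gadd45g, Cdkn2a, Trp63, Sesn3 and Myh2 were added after their values were seen. Some listed genes are not reported here. Each tongue came from its own mouse, and p-values measure the spread between these mice. The alternatives were quantile normalization, centred arrays, a filter on dim genes, the mean over probe sets or the most variable one, no intensity trend, robust variances, array weights, a replicate block, omission of each array, the methods' t-test and a threshold of 0.1. Leaving out both arrays of weakest 5′ Gapdh signal was chosen after seeing the data.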

Additional observations from a re-analysis of the deposited data

How the results depend on the processing

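No member passed after adjustment in most settings. The count was 1 with arrays centred on their medians (Sfn), 1 with a robust variance model (Pmaip1) and 2 at a threshold of 0.1 (both). Members higher at an unadjusted p under 0.05 numbered 4 with the replicate number as a block and 5 to 8 when each array was left out. Members lower numbered 1 with quantile normalization, with both other choices of probe set and with the replicate block, 0 with centring, and 0 to 3 when each array was left out. The replicate numbers were not shown to pair the mice: the correlations of deviations were 0.287, -0.51 and 0.0477 for numbers 1, 2 and 3. For the other p53 pathway genes, 6 were higher with the probe set of largest variance and 6 to 12 when each array was left out. Those lower numbered 2 with both other choices of probe set, 0 with the replicate block, the methods' t-test or without control replicate 3 and 4NQO replicate 2 together, and 0 to 3 when each array was left out. Their median log2 fold change was -0.0016 with the mean over probe sets and -0.024 with the probe set of largest variance, so its sign is not established. Of the lists set beside the members, 1 gene passed with centring, 1 with array weights and 2 at a threshold of 0.1, and of the cell markers 1 passed with centring and 1 at a threshold of 0.1. Over all genes, those higher after adjustment numbered 63 with centring, 15 with the mean over probe sets, 14 with the probe set of largest variance, 43 with a robust model, 41 with array weights, 2 with the replicate block, 1 with the methods' t-test, 103 at a threshold of 0.1, 4 without control replicate 3 and 4NQO replicate 2 together and 0 to 25 when each array was left out. The causes were not tested. Among the values of single members under the alternatives, 506 kept their direction and their side of the threshold, 28 changed direction without passing it and 4 came past the threshold.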
